A study of Mus musculus with 10 samples.

Results

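Soleus and tibialis anterior (TA) of 3 wild-type male mice were compared within animals, in 6 of the series' 10 RNA sequencing libraries. The 6 were chosen by the sex, muscle and animal in the submitters' labels, 1 soleus and 1 TA library for each of male mice 1, 2 and 3. Every mouse was wild type, and the sources used here give no treatment, strain, age, time or batch. The other 4 libraries, from 2 female mice, entered only 1 comparison, given in the closing section. Each library was made from whole muscle, so a lower value can mean fewer cells of a type or less RNA per cell, and the libraries do not tell these apart.

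Soleus is a postural muscle of the calf and TA lifts the foot. Muscle fibres are typed by the myosin heavy chain they carry: slow fibres burn fat and sugar in mitochondria and resist fatigue, while the fastest fibres rely on glycogen and glycolysis and relax quickly. Slow and fast fibres build the same sarcomere from different genes of each family, so that myosins, troponins, tropomyosins and calcium pumps come in slow and fast forms.

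The libraries had 728200 to 939623 counts on annotated genes, 728200 to 902405 in soleus and 884787 to 939623 in TA. Between 17.2% and 26.7% of these fell on Gm20594 (22.1% to 26.7% in soleus, 17.2% to 20.9% in TA) and 4.10% to 6.26% on Cep295. The skeletal fibre marker Acta1, the actin of the thin filament, was high throughout. It was at 47600, 42540 and 45360 CPM (counts scaled to library size, with TMM factors) in soleus of mice 1, 2 and 3 and at 41180, 41290 and 40730 in TA. Of the other markers on its list, Myh7 was almost without counts in TA and Myh4 in soleus, as given below. The first principal component of the 500 most variable genes held 82.6% of their variance and separated the muscles, and the second held 7.6%. Rank correlations were 0.906 to 0.918 between libraries of the same muscle and 0.743 to 0.781 between muscles. Soleus of mouse 3 stood apart from the other soleus libraries for a few fast fibre genes, described with those genes.

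Of 4091 genes tested, 1374 differed between the muscles (33.6%), 682 higher in soleus (16.7%) and 692 higher in TA (16.9%). The test was edgeR's quasi-likelihood F test with the mouse as a block and a Benjamini-Hochberg adjusted p under 0.05, and a gene that passed is said to be higher in 1 muscle. A difference of more than 2-fold was found for 340 genes toward soleus and 321 toward TA, and of more than 8-fold for 58 and 27. In 1338 of the 1374 all 3 mice had the same direction, and in 1206 the 3 soleus values did not overlap the 3 TA values. Values of the 2 muscles did not overlap in 1674 of all genes tested (40.9%). The median log2 fold change of all tested genes was -0.01. DESeq2's Wald test called 607 genes and shared 603 with edgeR.

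**Figure D1:**
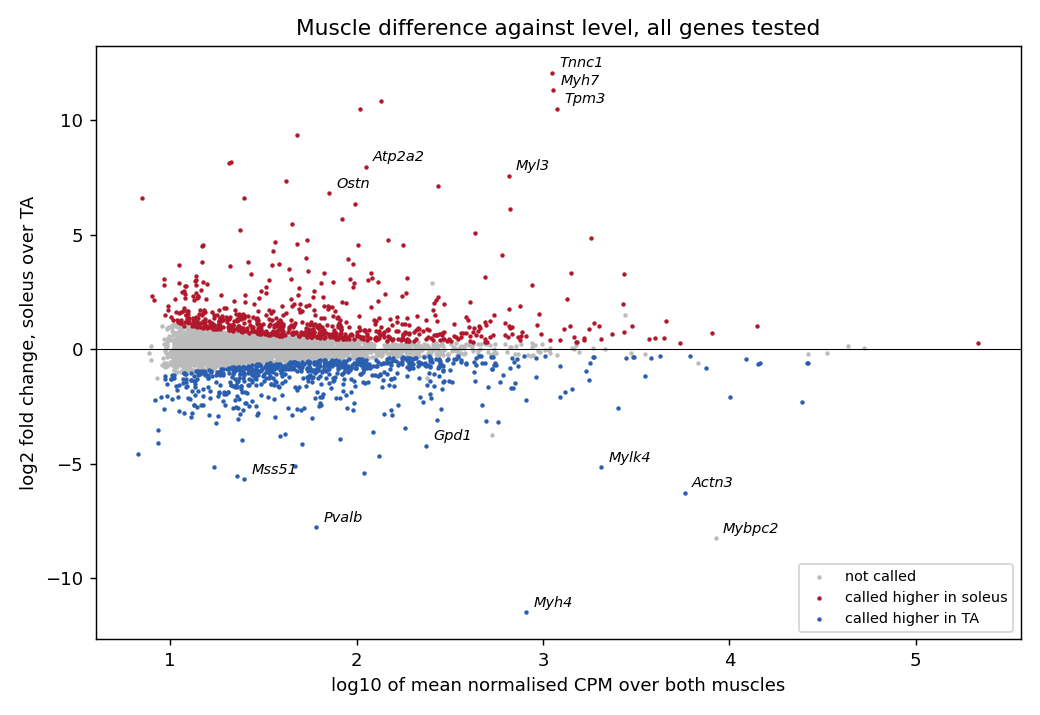
Log2 fold change of soleus over TA (vertical axis) against the log10 of the mean normalised CPM of both muscles (horizontal axis), 1 point for each of 4091 genes in 3 male mice. Red points were called higher in soleus (682), blue points higher in TA (692) and grey points were not called, among them Mybpc2 near the bottom.

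Slow sarcomere genes made up most of the largest differences toward soleus, and 9 of the 15 genes with the largest fold changes belong to the slow and cardiac sarcomere list. The slow myosin heavy chain Myh7 (GRCm38 chromosome 14, 54970684 to 54994626) was at 2042, 2220 and 2531 CPM in soleus and at 0, 0 and 2.24 CPM in TA. The 3 TA libraries held 2 counts in all, a ratio of 3043 with a 95% exact counting interval of 842.0 to 25130. Tnnc1, the calcium-binding troponin C of slow and cardiac fibres (chromosome 14, 31208312 to 31211729), was at 2547, 1974 and 2166 CPM in soleus and at 0, 0 and 1.12 CPM in TA. The single TA count puts the ratio at 6033 (interval 1082 to 238300). Both genes thus had no count in 2 of 3 TA libraries. Tpm3, the slow tropomyosin (chromosome 3, 90072649 to 90100902), was at 2350, 2316 and 2471 CPM in soleus and 1.11, 1.12 and 2.24 CPM in TA, a log2 fold change of 10.51 (SE 0.25, edgeR adjusted p = 2.03e-67). Myl3, a slow essential light chain, was at 1658, 1079 and 1163 CPM in soleus, against 6.68 CPM in TA (mean, SD 3.85, n = 3).

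Several of the leading soleus genes, most of them of the filaments, had no count at all in male TA. Tnni1, the slow inhibitory troponin, was at 244.6, 256.7 and 308.6 CPM in soleus and had 0 counts in TA. Set against 3 counts for the 3 TA libraries together, the floor used here, Tnni1 was at least 242-fold higher in soleus. For Myl2, the slow regulatory light chain, soleus was at least 189-fold higher, for Tecrl, a gene studied mostly in cardiac muscle, at least 85.3-fold higher, and for Myh6, the alpha cardiac myosin, at least 36.5-fold higher. Myh6 varied among soleus libraries, from 16.1 CPM in mouse 1 to 48.0 and 59.8 CPM in mice 2 and 3. Tnnt1, the slow troponin T, was seen once in TA, and the ratio was 224 (interval 39.8 to 8898). These counts cannot show absence, since 0 counts leave up to 3 counts per group possible.

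The remaining leading soleus genes were of several kinds, with further sarcomere genes among them. Atp2a2, the calcium pump of slow and cardiac sarcoplasmic reticulum, was at 201.0, 215.2 and 255.0 CPM in soleus against 2 counts in all of TA (ratio 301, interval 82.9 to 2490). Ostn, a peptide secreted by muscle, was at 163.1, 103.7 and 154.9 CPM in soleus against 3 counts in all of TA (ratio 127, interval 43.2 to 619.9). Pcp4l1, a relative of the calmodulin-binding gene Pcp4, had a log2 fold change of 7.14 (SE 0.23), Myl6b, a slow light chain, of 6.34 (SE 0.30), and Myom3, a protein of the M-band, of 6.12 (SE 0.18). Sbk3, a kinase gene, was at 49.4, 46.7 and 52.5 CPM in soleus and had 1 count in TA.

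The largest difference toward TA was that of the IIb myosin heavy chain, Myh4, on chromosome 11 (67238029 to 67260446). It was at 1150, 2312 and 1416 CPM in TA and at 1.15, 0 and 0 CPM in soleus. The single soleus count puts the ratio at 3998 (interval 717.3 to 158000). Pvalb, parvalbumin, which binds calcium in fast fibres (chromosome 15, 78191114 to 78206400), was at 133.7, 121.9 and 107.5 CPM in TA against 1 count in all of soleus (ratio 298, interval 53.1 to 11810). Mylk4, a myosin light chain kinase family member, was at 4022, 4884 and 3117 CPM in TA and at 93.0, 127.1 and 109.8 CPM in soleus, a log2 fold change of -5.17 (SE 0.15, edgeR adjusted p = 2.88e-58). These 3 genes, chosen for their large differences, did not overlap between muscles, which held for 40.9% of all genes tested.

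The other leading TA genes had varied roles. Mss51, a mitochondrial regulator of fast muscle, was at 33.1, 35.8 and 78.4 CPM in TA and had 2 counts in soleus. Gpd1, which reduces dihydroxyacetone phosphate beside glycolysis, was at 434.2, 525.6 and 380.8 CPM in TA and at 19.5, 27.2 and 24.4 CPM in soleus. Among potassium channel genes Kcnc4 had a log2 fold change of -4.68 (SE 0.22) and Kcng4 of -3.96 (SE 0.42). Nos1, the neuronal nitric oxide synthase anchored at the fibre membrane, had 4.59, 2.59 and 23.2 CPM in soleus and 133.7, 138.7 and 183.7 CPM in TA (-3.92, SE 0.28). Cdh4, a cadherin, had -5.56 (SE 0.53), and Mettl21e, a methyltransferase of muscle, -5.12 (SE 0.36). Tmem233, a membrane protein, had -5.41 (SE 0.26), Cib2, a calcium-binding protein, -4.16 (SE 0.31), and Lmod1, a leiomodin, -3.81 (SE 0.33). A second locus named Aldoa, beside the main aldolase A gene, had -5.13 (SE 0.58). How reads were assigned between the 2 loci is not known, so its value is uncertain.

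**Figure D2:**
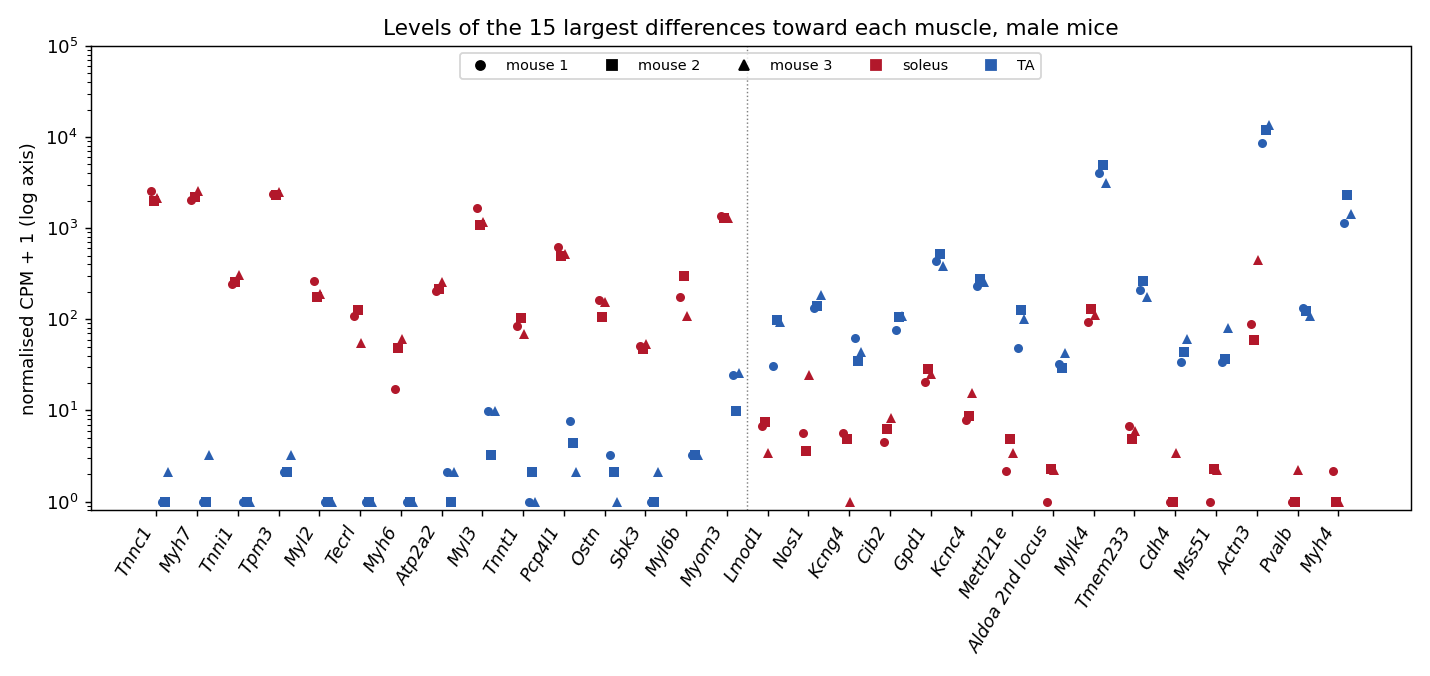
Normalised CPM plus 1 on a log axis for the 15 genes with the largest fold changes toward soleus (left) and toward TA (right), 1 point per library, with soleus in red, TA in blue and 1 shape per mouse. The 30 genes were chosen for large differences with 1 direction in all mice, and for none did the 2 muscles overlap. Among all genes tested, 40.9% did not overlap. Soleus of mouse 3 lies above the other soleus libraries for Actn3 and Nos1.

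Promoter sequences are shown for 4 of these genes, chosen after their matches were seen because they hold the most motif matches in each direction or stand first in rank. RefSeq windows of the GRCm38.p6 build were matched by gene symbol, for 13 of the 15 soleus genes and 11 of the 15 TA genes. The 250 bases before the start were searched on both strands. The Aldoa windows lie within the main Aldoa gene, so the second Aldoa locus, counted among the 11, had no window of its own. The motifs were the MEF2 site and the CArG box, matched as patterns, and the MCAT motif (CATTCC), an E-box (CAGCTG), the estrogen-related receptor motif (AAGGTCA) and a TATA box (TATAAA). Capitals mark the matches, and positions count back from the start, where -1 is the base before it.

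Myh4, higher in TA (chr11:67237562-67237811, plus strand): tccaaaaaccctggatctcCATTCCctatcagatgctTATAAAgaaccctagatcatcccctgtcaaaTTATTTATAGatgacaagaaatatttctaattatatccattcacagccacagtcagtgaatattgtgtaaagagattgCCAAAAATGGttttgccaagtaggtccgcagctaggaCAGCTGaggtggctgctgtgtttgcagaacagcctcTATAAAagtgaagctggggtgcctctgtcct
Mylk4, higher in TA (chr13:32783965-32784214, minus strand): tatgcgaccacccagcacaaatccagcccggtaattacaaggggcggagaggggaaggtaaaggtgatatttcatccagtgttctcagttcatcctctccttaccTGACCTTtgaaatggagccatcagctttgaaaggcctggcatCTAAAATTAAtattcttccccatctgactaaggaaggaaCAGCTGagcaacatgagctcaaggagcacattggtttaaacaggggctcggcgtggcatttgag
Myl3, higher in soleus (chr9:110763428-110763677, plus strand): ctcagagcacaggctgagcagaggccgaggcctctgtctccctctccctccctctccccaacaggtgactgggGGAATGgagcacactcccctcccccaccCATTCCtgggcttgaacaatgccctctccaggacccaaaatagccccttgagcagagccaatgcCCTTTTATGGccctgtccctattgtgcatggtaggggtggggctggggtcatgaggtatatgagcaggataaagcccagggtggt
Tnnc1, higher in soleus (chr14:31208062-31208311, plus strand): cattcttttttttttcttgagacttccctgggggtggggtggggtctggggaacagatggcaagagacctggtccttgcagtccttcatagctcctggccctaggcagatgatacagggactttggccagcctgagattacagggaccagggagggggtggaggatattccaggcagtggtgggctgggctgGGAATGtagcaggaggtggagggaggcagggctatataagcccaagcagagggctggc

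The Myh4 window held an MCAT motif at -231, a TATA box match at -213, a MEF2 site at -182, which overlaps a TATA box match on the other strand at -179, a CArG box at -104, an E-box at -67 and a TATA box at -31. Mylk4 held a MEF2 site at -103, an E-box at -64 and the receptor motif at -145. Myl3 held a CArG box at -85 and MCAT motifs at -177 and -149, and Tnnc1 held an MCAT motif at -58. Over 32851 RefSeq windows of the same length, 2.92% held a MEF2 site, 1.47% a CArG box, 12.6% an MCAT motif, 13.0% this E-box, 4.08% the receptor motif and 12.4% a TATA box. Those shares are per window. The counts that follow are per gene, and a gene counted if any of its windows matched, so the 2 measures are unlike. A MEF2 site was in 3 of the 11 matched TA genes (Myh4, Mylk4 and Pvalb) and in 1 of the 13 matched soleus genes (Myom3). For the MCAT motif the counts were 3 of 11 in TA and 4 of 13 in soleus. The MCAT match of Aldoa, 1 of those 3, is in a window of the main gene and not of the second locus. For the E-box the counts were 5 of 11 and 4 of 13, and for the TATA box 1 of 11 and 2 of 13. The CArG box and the receptor motif were each in 1 gene per direction. By window, the MEF2 site was in 3 of 14 for TA and 1 of 17 for soleus, and the MCAT motif in 3 and 4. The E-box was in 5 and 5 of these windows, the TATA box in 1 and 2, and the other 2 motifs in 1 each. A match describes letters in this window and is not a measured binding site.

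The gene lists were read against the background of 16.7% of all tested genes higher in soleus and 16.9% higher in TA. They were chosen with earlier results of these data known. Tnni1, Myl2 and Myh6 had no count in TA, and Myh4 had 1 in soleus, so these passed the filter through 1 muscle only. The same held for Myh7, Tnnc1, Tpm3, Tnnt1, Myl3 and Myh7b of the slow and cardiac sarcomere list, which had few counts in every TA library. In other lists it held for Atp2a2, Pvalb, Ldhb and Idh2, among others. The numbers called therefore describe the members and do not test a list. All 15 tested members of the slow and cardiac sarcomere list were higher in soleus, with a median log2 fold change of 7.34, or 6.12 when genes with no count in 1 muscle are set to their bound. Ankrd2, a stretch-responsive titin-binding protein, was at 3464, 3463 and 3582 CPM in soleus and 209.9, 77.2 and 99.7 CPM in TA (log2 fold change 4.85, SE 0.34). The smallest differences in the list were those of Actn2, the alpha-actinin of all fibres (0.83, SE 0.21), and Mybpc1, the slow myosin-binding protein C (1.01, SE 0.13). Mybpc1 was at 828.1, 950.5 and 830.7 CPM in soleus and still at 565.7, 358.9 and 386.4 CPM in TA. Summed over the list, soleus libraries had 17590 to 18680 CPM and TA libraries 809.6 to 1130 CPM. Ankrd2, Mybpc1 and the further genes named beside the first 5 of a list were picked after their values were seen.

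The fast sarcomere list had 15 tested genes, of which TA was higher for 14 and soleus for 0, with a median of -2.48. Summed levels of the list were 52100 to 66170 CPM in TA and 5779 to 6170 CPM in soleus. Tnnc2, the fast troponin C, was at 15870, 17590 and 15360 CPM in TA and at 4168, 3820 and 3428 CPM in soleus (-2.10, SE 0.12). Mylpf, the fast regulatory light chain, had -3.14 (SE 0.16), Myoz1, a calcineurin-binding Z-disc protein, -3.18 (SE 0.14), and Myom2, an M-band protein, -2.58 (SE 0.13). Fast troponin C was thus found in both muscles, while slow troponin C had 1 count in TA. Tnnt3, the fast troponin T, differed least as a gene (-0.40, SE 0.14, edgeR adjusted p = 0.0217), and that call was lost without mouse 1 (adjusted p = 0.161) or mouse 3 (0.295). Myh8, the perinatal myosin heavy chain, was at 817.6, 825.2 and 729.2 CPM in TA and at 94.2, 226.9 and 135.4 CPM in soleus.

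Mybpc2, the fast myosin-binding protein C, was the 1 tested member of the fast list that was not called, and its soleus values depended on the mouse. It was at 13740, 19480 and 17080 CPM in TA and at 2.30, 3.89 and 425.7 CPM in soleus of mice 1, 2 and 3. The groups did not overlap, with a log2 fold change of -8.26 (SE 2.19, edgeR adjusted p = 0.127). Without mouse 3 the value was -12.34 (adjusted p = 1.97e-17), and DESeq2's Wald test with all mice gave an adjusted p of 1.21e-09. Actn3, the alpha-actinin of fast fibres, showed the same library apart: 87.3, 58.4 and 442.8 CPM in soleus and 8530, 12050 and 13470 CPM in TA. Its call (-6.28, SE 0.89, edgeR adjusted p = 0.0446) was lost without mouse 1 (0.334), with no filter (0.220) and with a filter of 5 CPM (0.0569), and without mouse 3 its adjusted p was 9.86e-11. In the same soleus library of mouse 3, Myh4 had 0 counts, Pvalb was at 1.22 CPM and Mylpf at 51.2 CPM, the last below its 98.8 and 168.6 CPM in mice 1 and 2. Nos1, at 23.2 CPM against 4.59 and 2.59, and Myh1, at 17.1 CPM against 0 and 7.78, were also highest in that library among the soleus libraries. What set these genes apart there was not tested.

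As shares of the counts on 4 adult myosin heavy chains, Myh7 was 98.94%, 98.62% and 98.95% in soleus of mice 1, 2 and 3, and the exact (Clopper-Pearson) 95% interval for mouse 2 was 97.95% to 99.11%. Myh4 was 95.2%, 98.3% and 96.6% in TA, with an interval of 93.7% to 96.3% for mouse 1, and intervals and floors cover counting error only. Myh1, the IIx form, was at 51.9, 35.8 and 47.0 CPM in TA and at 0, 7.78 and 17.1 CPM in soleus (-2.47, SE 0.56, edgeR adjusted p = 0.00956). Myh2, the IIa form, was at 20.7, 23.3 and 9.76 CPM in soleus and at 6.63, 4.47 and 0 CPM in TA, too low for the filter, so it was not tested. Shares of counts are not shares of fibres, and levels of different genes are not comparable where reads shared by transcripts went uncounted. Over 2382 multi-transcript genes holding 100 counts or more, a count was found for 39 of 966 transcripts with no 31-base word of their own within the gene (4.04%) and for 4938 of 7657 with more than 100 such words (64.5%).

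Calcium genes differed in both directions. Atp2a1, the fast calcium pump, was at 37400, 44760 and 40250 CPM in TA and at 8004, 8668 and 7841 CPM in soleus (-2.32, SE 0.11). Sln, the pump inhibitor sarcolipin, was at 225.1, 147.8 and 212.3 CPM in soleus and at 2.21, 6.71 and 15.7 CPM in TA (4.56, SE 0.26). Casq1, the calcium store protein calsequestrin of fast fibres, had -1.76 (SE 0.13). For calcium handling and excitation-contraction coupling soleus was higher for 2 of 16 tested genes and TA for 8, or 5 by DESeq2's Wald test. In the calcineurin and NFAT list, which links calcium to slow gene expression, 1 of 6 was higher in soleus, Rcan2, an inhibitor of calcineurin (1.50, SE 0.37), a call lost without mouse 3. The 2 members higher in TA were calcineurin subunits, Ppp3ca (-0.77, SE 0.18) and Ppp3r1 (-0.78, SE 0.13). By DESeq2's Wald test 0 of this list were higher in soleus and 1 in TA, with the calls of Rcan2 and Ppp3ca lost.

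**Figure D3:**
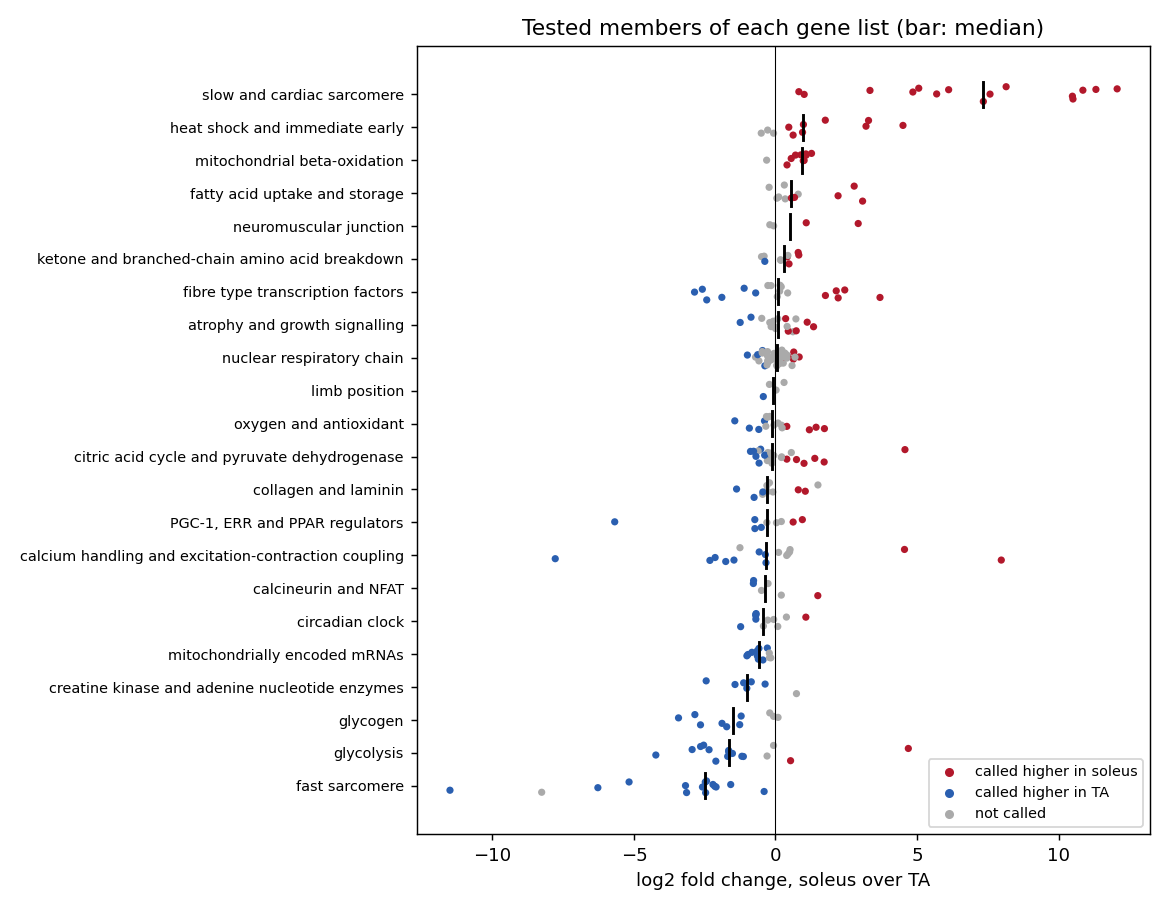
Log2 fold change of soleus over TA for each tested member of the gene lists described in the text, 1 point per gene, with a black bar at each list's median. Red points were called higher in soleus, blue points higher in TA and grey points were not called, and lists run from the highest median (slow and cardiac sarcomere, 7.34) to the lowest (fast sarcomere, -2.48).

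Genes of glycolysis were higher in TA for 12 of 16 tested, with a median of -1.65. Aldoa, aldolase A, was at 980.0, 997.4 and 1109 CPM in TA and at 255.0, 339.7 and 370.8 CPM in soleus (-1.69, SE 0.13), and Pkm, pyruvate kinase, had -1.66 (SE 0.13). Gapdh, the glycolytic dehydrogenase, had -2.11 (SE 0.15), and Eno3, the muscle enolase, -2.65 (SE 0.25). The 2 members higher in soleus handle lactate: Ldhb, the heart-type lactate dehydrogenase subunit, was at 78.1, 62.2 and 72.0 CPM in soleus and at 3.31, 1.12 and 3.36 CPM in TA (4.69, SE 0.36). The other was Slc16a1, a monocarboxylate transporter, at 0.53 (SE 0.15), a call lost without mouse 3 (edgeR adjusted p = 0.107). Its fast-fibre relative Slc16a3 had -2.94 (SE 0.49). Hk2, the insulin-regulated hexokinase, was not called (-0.07, SE 0.13).

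Among 10 tested glycogen genes TA was higher for 7 and soleus for 0 (median -1.49). Phkg1, the catalytic subunit of phosphorylase kinase, was at 318.2, 362.3 and 314.7 CPM in TA and at 39.1, 32.4 and 20.7 CPM in soleus (-3.43, SE 0.17). Phkb, a regulatory subunit of the same kinase, had -2.65 (SE 0.17), and Stbd1, a glycogen-binding protein, -2.85 (SE 0.37). Ppp1r3a, which targets a phosphatase to glycogen, had -1.89 (SE 0.13), and Ppp1r3c, a relative of it, -1.21 (SE 0.13). Pygm, the muscle phosphorylase, and Pgm1 had no count in these 6 libraries. These zeros cannot show absence, since reads shared by transcripts may have gone uncounted, and their cause was not tested.

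Energy-transfer genes followed the same direction. Among 7 tested creatine kinase and adenine nucleotide enzymes TA was higher for 6 and soleus for 0 (median -1.01). Prkaa2, a catalytic subunit of the energy sensor AMPK, was at 810.9, 856.5 and 850.1 CPM in TA and at 413.5, 315.1 and 433.1 CPM in soleus (-1.13, SE 0.12), and its partner Prkab2 had -2.45 (SE 0.23). Ckm, the muscle creatine kinase, had -1.43 (SE 0.12), Adssl1, a purine cycle enzyme, -1.01 (SE 0.20), and Ak3, a mitochondrial adenylate kinase, -0.86 (SE 0.18).

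Fat-burning genes ran the other way. Soleus was higher for 9 of 10 tested beta-oxidation genes and TA for 0 (median 0.94). Acadm, the medium-chain acyl-CoA dehydrogenase, was at 632.8, 579.6 and 608.7 CPM in soleus and at 297.2, 291.8 and 313.6 CPM in TA (1.01, SE 0.12). Acaa2, the last enzyme of the cycle, had 1.07 (SE 0.12), Etfa, which passes its electrons on, 1.08 (SE 0.14), Decr1, which handles unsaturated chains, 0.71 (SE 0.13), and Acot2, a thioesterase, 1.27 (SE 0.23). These 5 values lay between 0.71 and 1.27. For fatty acid uptake and storage soleus was higher for 5 of 11 tested genes and TA for 0 (median 0.56), or 3 in soleus without mouse 2 and 3 by DESeq2.

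Carriers and lipid-handling enzymes in that list had its largest differences. Fabp3, the fatty acid carrier of muscle and heart, was at 1684, 1345 and 1518 CPM in soleus and at 270.7, 234.8 and 163.5 CPM in TA (2.78, SE 0.14). Lpl, lipoprotein lipase, was at 2209, 2055 and 2395 CPM in soleus and at 453.0, 533.4 and 452.5 CPM in TA (2.21, SE 0.13), and Dgat2, which makes triglyceride, had 3.08 (SE 0.21). Cpt1b, which admits fatty acids to mitochondria, had 0.67 (SE 0.25, edgeR adjusted p = 0.0302), a call lost without each mouse in turn. No adipocyte marker had enough counts to be tested, and the 6 of them together came to 36.8 to 40.3 CPM in soleus and 4.42 to 7.84 CPM in TA. Their part in the lipid values was not tested.

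Mitochondrial genes did not move as 1 group. Soleus was higher for 5 and TA for 4 of 44 tested nuclear subunits of the respiratory chain, with a median of 0.05. By DESeq2's Wald test 1 was higher in each, without mouse 3 edgeR called 1 in soleus, without mouse 1 or 2 it called 3 there, and without mouse 2 it called 1 in TA. Cox8a, a cytochrome oxidase subunit, had 0.84 (SE 0.19) and Ndufb3, a complex I subunit, 0.63 (SE 0.14), a call lost without mouse 3, while Cycs, cytochrome c, had -0.63 (SE 0.12). Of 12 tested messenger RNAs encoded by mitochondria 9 were higher in TA and 0 in soleus (median -0.60). For example, mt-Cytb, cytochrome b, was at 22530, 21560 and 18870 CPM in soleus and at 33500, 31440 and 30690 CPM in TA. Mitochondrially encoded RNA took 12.5% to 14.0% of counts in soleus and 16.3% to 17.8% in TA, and Gm20594 moved the opposite way, as given above. Whether the 2 are linked was not tested.

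Soleus was higher for 6 and TA for 7 of 25 tested genes of the citric acid cycle and pyruvate dehydrogenase, or 4 in TA without mouse 1 or 2 and 2 in TA by DESeq2's Wald test. Idh2, the mitochondrial NADP-linked isocitrate dehydrogenase, stood out with 87.3, 79.1 and 108.6 CPM in soleus and 2.21, 3.36 and 5.60 CPM in TA (4.57, SE 0.32). Mdh1, the cytosolic malate dehydrogenase, had 0.74 (SE 0.12), and Suclg1, a succinyl-CoA ligase subunit, -0.77 (SE 0.14). Pdk1, a kinase that shuts off pyruvate dehydrogenase, had 1.39 (SE 0.19). Pdk4, another such kinase, had 1.01 (SE 0.13), with the mice further apart than the muscles, as described with the mice.

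Breakdown of ketones and branched-chain amino acids had 4 of 10 tested genes higher in soleus and 1 in TA (median 0.30), or 2 in soleus without mouse 1 or 3. The 1 higher in TA, Mut, was lost without each mouse in turn. Acat1, a thiolase of ketone use, had 0.80 (SE 0.12), and Ivd, of leucine breakdown, 0.82 (SE 0.17). Among oxygen and antioxidant genes 4 of 16 were higher in each muscle, or 2 in each by DESeq2's Wald test. Egln3, an oxygen-sensing hydroxylase, was at 349.2, 378.6 and 448.9 CPM in soleus and at 75.1, 118.5 and 171.4 CPM in TA (1.73, SE 0.14). Cat, catalase, had 1.43 (SE 0.14), while Sod2, the mitochondrial superoxide dismutase, had -0.59 (SE 0.12) and Ucp3, an uncoupling protein, -1.44 (SE 0.17). Mb, the oxygen store myoglobin, was not called (0.21, SE 0.15).

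Fibre type transcription factors were split, with 5 of 18 tested higher in soleus and 6 in TA. Prox1, a homeobox factor of slow fibres, was at 75.8, 32.4 and 87.8 CPM in soleus and at 3.31, 8.95 and 2.24 CPM in TA (3.69, SE 0.37). Vgll2, a cofactor of TEAD factors, had 1.76 (SE 0.21). Large Maf family members were among those higher in TA: Maf was at 235.3, 266.1 and 314.7 CPM in TA and at 25.3, 58.4 and 30.5 CPM in soleus (-2.86, SE 0.18), and Mafa had -2.58 (SE 0.25). Sox6, a repressor of slow genes, had -2.43 (SE 0.45), and Tbx15, a T-box factor of fast fibres, -0.70 (SE 0.12). The myogenic factors went apart, with Myog, myogenin, at 2.45 (SE 0.46) and Myod1 at -1.90 (SE 0.36).

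Regulators of oxidative metabolism were not uniform. In the PGC-1, ERR and PPAR list, soleus was higher for 2 of 9 tested genes and TA for 4, or 1 in TA without mouse 1 or 3, and 1 in soleus without mouse 1. By DESeq2's Wald test 1 was higher in each muscle. Perm1, a muscle factor induced by PGC-1 and ERR, had 0.95 (SE 0.13), and Esrra, an estrogen-related receptor, 0.62 (SE 0.19), lost without mouse 1. Ppargc1a, which encodes PGC-1 alpha, was at 51.9, 32.4 and 53.8 CPM in TA and at 26.4, 27.2 and 29.3 CPM in soleus (-0.73, SE 0.24, edgeR adjusted p = 0.0128), a call lost without mouse 1 or 3. Nrip1, a corepressor of these receptors, had -0.73 (SE 0.24), lost in the same fits.

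Stress chaperones were higher in soleus. Soleus was higher for 8 of 11 tested heat shock and immediate early genes and TA for 0 (median 0.96), and all 8 are chaperones or their partners. Hspb7, a small heat shock protein of muscle, was at 5035, 4785 and 4948 CPM in soleus and at 734.7, 279.5 and 600.4 CPM in TA (3.29, SE 0.30). Hspb6 had 1.76 (SE 0.13) and Bag3, a chaperone partner of filament turnover, 0.99 (SE 0.12). Inducible Hspa1a was at 27.6, 11.7 and 46.4 CPM in soleus and had 3 counts in TA, and Hspa1b had 3.20 (SE 0.48). Hspa1a and Hspa1b are near-identical copies, so reads may have been split between them. The immediate early gene Jun was not called (-0.28, SE 0.13), and Fos, Egr1 and Atf3 were too low to be tested.

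Growth, nerve and clock genes differed singly. Among 17 tested genes of atrophy and growth signalling soleus was higher for 5 and TA for 2, or 2 in soleus without mouse 3 or by DESeq2's Wald test. Klhl40 and Klhl41, adaptors that stabilise thin filament proteins, had 1.35 (SE 0.16) and 1.12 (SE 0.12), while Smad3, a transducer of myostatin signals, had -1.25 (SE 0.14). Irs1, an insulin receptor substrate, had -0.87 (SE 0.14). At the neuromuscular junction 2 of 4 were higher in soleus: Chrna1, an acetylcholine receptor subunit, at 157.3, 79.1 and 161.0 CPM in soleus and 6.63, 26.8 and 17.9 CPM in TA, and Lrp4, the agrin receptor, at a log2 fold change of 1.09 (SE 0.26). By DESeq2's Wald test 1 was higher in soleus, and the call of Lrp4 was lost.

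Among 11 tested circadian clock genes TA was higher for 5 and soleus for 1, or 3 and 0 by DESeq2's Wald test. Bhlhe41, a clock repressor, had -1.23 (SE 0.22), Bhlhe40 -0.70 (SE 0.18), Nr1d2, a nuclear receptor of the clock, -0.69 (SE 0.15), and Cry1, of the core loop, 1.07 (SE 0.34), lost without mouse 2 or 3. Among polyamine synthesis genes, Sms, spermine synthase, had -2.12 (SE 0.20) and Amd1, which supplies its substrate, -3.06 (SE 0.38), while Odc1, ornithine decarboxylase, was not called (0.71, SE 0.35). Of 4 tested limb position genes 1 was called, Hoxc10 (-0.43, SE 0.15), a call lost without mouse 2.

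Markers of other cell types also differed. All 4 tested tenocyte markers were higher in soleus: Comp, a tendon matrix protein, at 47.1, 76.5 and 79.3 CPM in soleus and 5.52, 2.24 and 2.24 CPM in TA (4.27, SE 0.35), Fmod, a collagen-binding proteoglycan (2.47, SE 0.16), Tnmd, tenomodulin (2.45, SE 0.29), and Thbs4, a thrombospondin (1.47, SE 0.17). The 6 tenocyte genes came to 739.1 to 882.0 CPM in soleus and 149.0 to 325.9 CPM in TA. All 3 tested endothelial markers were higher in TA, Cdh5, a junction cadherin (-1.43, SE 0.13), Kdr, a growth factor receptor (-1.39, SE 0.18), and its relative Flt1 (-0.87, SE 0.19), and the list summed to 546.6 to 848.7 CPM in TA against 262.3 to 295.6 CPM in soleus. Of 3 smooth muscle and pericyte markers 2 were higher in TA, Rgs5 (-0.83, SE 0.12) and Notch3 (-1.25, SE 0.21). Skin markers Krt5 and Krt14, the Schwann cell factor Sox10 and the B cell gene Cd79a had 0 counts in all 6 libraries, and no lymphocyte, skin or Schwann cell gene could be tested.

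Soleus was higher for 2 and TA for 3 of 13 tested collagen and laminin genes, or 5 in TA without mouse 2 and 1 in soleus without mouse 3. Col4a2, of the vessel and fibre basement membrane, was at 644.1, 799.5 and 418.9 CPM in TA and at 210.2, 374.7 and 153.7 CPM in soleus (-1.38, SE 0.13). Col1a2, a chain of fibrous collagen, had 1.05 (SE 0.25), a call lost without mouse 3, and Col3a1, of the same kind, -0.76 (SE 0.13). Tenocyte and endothelial markers also differed between the muscles, as given above, and their part in the collagen values was not tested. Of the remaining marker lists, 1 of 3 macrophage genes was higher in each muscle, Lyz2 (0.55, SE 0.16) in soleus, lost without mouse 2, and Mrc1 (-0.46, SE 0.17) in TA, lost without mouse 1 or 3. The 2 tested satellite cell genes split, the syndecan Sdc4 toward soleus (0.91, SE 0.24) and the adhesion molecule Vcam1 toward TA (-1.09, SE 0.38), the latter lost without mouse 1 or 2. Of 2 fibro-adipogenic genes, Smoc2 was higher in TA (-1.82, SE 0.43) and Dcn, decorin, was not called (0.26, SE 0.22).

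The 3 mice also differed from each other. Of 4091 genes 182 differed between mice (4.45%) by edgeR's quasi-likelihood test of the mouse terms, and 98 of them also differed between muscles. Mouse 3 was highest in 87 and mouse 1 lowest in 89. DESeq2's likelihood ratio test called 49, and without mouse 3 edgeR called 44.

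All 5 erythroid genes differed between mice, highest in mouse 3 in both muscles. Hbb-bt, a beta globin, was at 377.9, 319.0 and 928.3 CPM in soleus and at 283.9, 235.9 and 843.4 CPM in TA of mice 1, 2 and 3 (edgeR adjusted p = 1.79e-19), and without mouse 3 it was not called (0.684). Alas2, a heme synthesis enzyme of red cells, was at 75.8, 70.0 and 156.1 CPM in soleus and 56.4, 42.5 and 160.2 CPM in TA. Globin genes are near-identical copies and their reads may have been split among them. Summed, the list was at 13750 to 36480 CPM in soleus and 6023 to 21030 CPM in TA. Between muscles 2 of the 5 were called higher in soleus, Hba-a2 (1.02, SE 0.12), lost without a mouse block, and Hbb-bt (0.32, SE 0.12), lost without any 1 mouse. Blood content was not measured otherwise, and its part in other differences between mice was not tested.

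Other genes of the mouse comparison fell into single patterns. H2-Eb1, a class II antigen presentation gene, was at 10.3, 13.0 and 145.2 CPM in soleus and at 12.2, 11.2 and 183.7 CPM in TA, high in mouse 3 only (edgeR adjusted p = 4.39e-27, and 0.984 without mouse 3). Nmrk2, a kinase of NAD synthesis in muscle, was at 87.3, 11.7 and 92.7 CPM in soleus and at 202.2, 22.4 and 138.9 CPM in TA, low in mouse 2 (adjusted p = 1.90e-17, and 0.691 without mouse 2). Ptcd3, of the mitochondrial ribosome, was at 6.89, 76.5 and 163.5 CPM in soleus and 8.84, 36.9 and 106.4 CPM in TA, lowest in mouse 1 and highest in mouse 3 (adjusted p = 1.88e-19). Acad9, a complex I assembly factor, had the same order, with 19.5, 73.9 and 137.8 CPM in soleus and 11.1, 91.7 and 155.7 CPM in TA. The predicted genes F830016B08Rik, Gm48443, Gm47932, Gm47628 and Gm47933 were also lowest in mouse 1 and highest in mouse 3 in both muscles.

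Metabolic and matrix genes differed between mice as well, named after their values were seen. Pdk4 was at 3016, 6553 and 1887 CPM in soleus and at 1631, 4297 and 641.8 CPM in TA, highest in mouse 2 in both (edgeR adjusted p = 3.70e-13). Col3a1 was at 885.5, 1704 and 285.4 CPM in soleus and at 1948, 2026 and 534.3 CPM in TA, lowest in mouse 3 in both (adjusted p = 6.74e-16). By list, 5 of 13 collagen and laminin genes differed between mice, 4 of 16 oxygen and antioxidant genes (Ucp3, Mb, Egln3 and Gpx3) and 3 of 15 fast sarcomere genes (Myh4, Mylpf and Myoz1), beside 4.45% of all genes. Each other list, markers aside, had 0 to 2 such genes. Ckm was lowest in mouse 3, at 211.0 CPM in soleus and 554.4 CPM in TA (adjusted p = 4.30e-06).

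**Figure D4:**
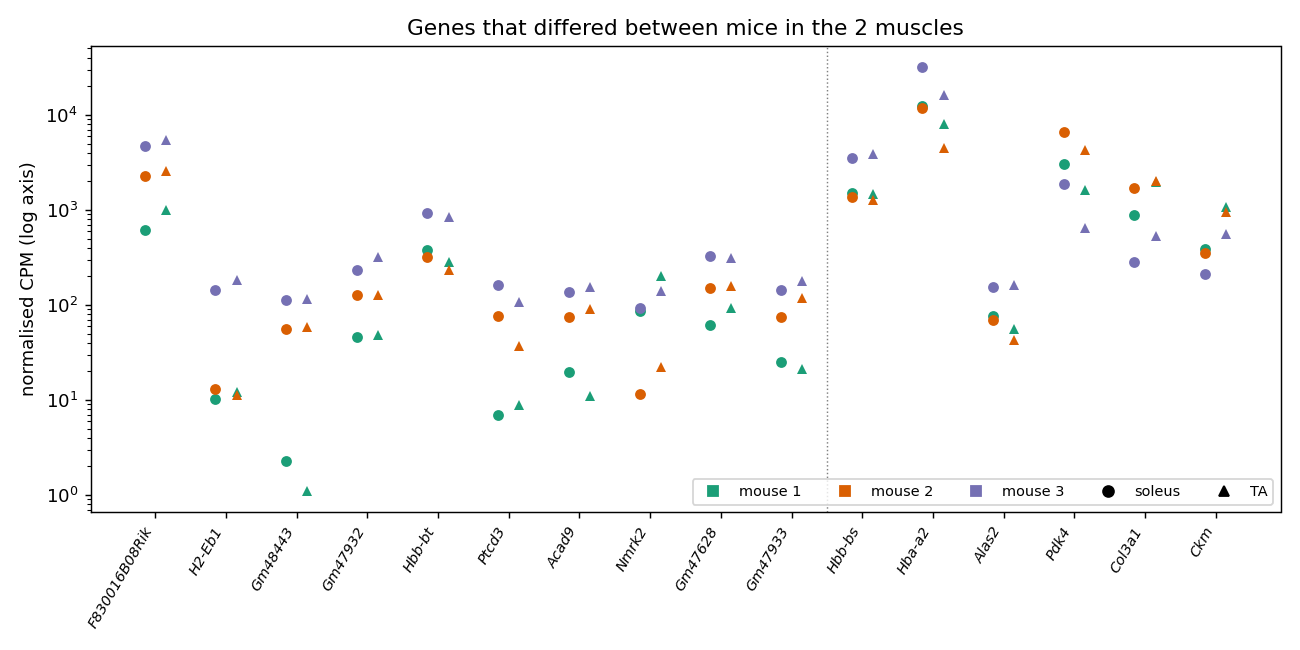
Normalised CPM on a log axis for the 10 genes with the smallest p between mice (left of the dotted line) and 6 genes named after their values were seen (right), with 1 colour per mouse, circles for soleus and triangles for TA. Mouse 3 is highest in both muscles for the globin genes and Alas2, and mouse 2 is highest in both for Pdk4.

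Summed counts of a gene can hide transcripts that differ in opposite directions, so transcripts were tested as well. Of 4053 transcripts 1407 differed between muscles (34.7%), 707 higher in soleus and 700 in TA. In 137 genes at least 2 transcripts were tested, and in 6 of these (4.38%) 1 transcript was higher in soleus and another in TA, among them Neb, Dtna, Ndufv3, Fgd4 and Tnnt3. As genes, 4 of the 6 were not called. With a filter of 5 CPM in place of the default, 10 genes had opposite calls. Exons that differ between pairs of oppositely called transcripts of Tnnt3, Ndufv3 and Neb are shown to make the annotated difference visible, chosen after these calls were seen. They are exons of GENCODE M21 on GRCm38, present in 1 transcript of the pair and absent from the other. Further transcripts of the gene can share them, and the counts do not show which exons the reads came from.

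Tnnt3-216 exon 4, absent from Tnnt3-211 (chr7:142502740-142502757, plus strand): aacaatacgaagaggaag
Tnnt3-216 exon 6, absent from Tnnt3-211 (chr7:142504250-142504264, plus strand): aagtccaggaggaag
Ndufv3-201 exon 3, first 90 bases, absent from Ndufv3-202 (chr17:31527310-31527399, plus strand): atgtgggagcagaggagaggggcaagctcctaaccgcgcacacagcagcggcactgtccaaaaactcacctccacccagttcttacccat
Neb-203 exon 143, absent from Neb-208 (chr2:52156355-52156447, minus strand): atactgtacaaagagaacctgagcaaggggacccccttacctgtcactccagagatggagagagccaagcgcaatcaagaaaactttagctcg

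In Tnnt3, the fast troponin T, 1 form had a single count in soleus. Tnnt3-211 had 1, 0 and 0 counts in soleus of mice 1, 2 and 3 and 78, 47 and 42 counts in TA (log2 fold change -6.83, SE 0.52, edgeR adjusted p = 5.15e-38). Tnnt3-216 had 93, 124 and 76 counts in soleus and 65, 75 and 60 in TA (0.68, SE 0.17, adjusted p = 0.000515), with values that barely separate. Exon 4 is 18 bases and exon 6 is 15 bases, both wholly coding and in frame, and both are skipped in Tnnt3-211. Tnnt3-227, an annotated retained intron, had 1, 0 and 2 counts in soleus and 13, 22 and 19 in TA (-3.88, SE 0.63). Of the first 2 transcripts, each has only 7 words of 31 bases that no other transcript of the gene holds, and how shared reads were assigned is not given in the sources used here.

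Ndufv3, a subunit of complex I, had 2 transcripts called in opposite directions, while the gene was not called (0.22, SE 0.17, edgeR adjusted p = 0.350). Ndufv3-202 has only 31 words of 31 bases of its own within the gene, against 360 for Ndufv3-201. The assignment of shared reads is unknown here too. Ndufv3-201 had 54, 59 and 47 counts in soleus and 11, 11 and 10 in TA (2.44, SE 0.27, adjusted p = 3.68e-18). Ndufv3-202 had 21, 21 and 26 counts in soleus and 60, 66 and 54 in TA (-1.27, SE 0.23, adjusted p = 6.61e-07). The long form carries exon 3, 1092 coding bases, and neither transcript overlapped between muscles.

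Neb encodes nebulin, the ruler-like protein along the thin filament, and 8 of its transcripts were tested. Neb-208, annotated as a processed transcript, had 712, 504 and 608 counts in soleus and 97, 33 and 69 in TA (3.37, SE 0.14, edgeR adjusted p = 5.63e-107). Neb-206 had 2, 3 and 5 counts in soleus and 294, 503 and 337 in TA (-6.63, SE 0.24), and Neb-210 had 67, 17 and 48 in soleus and 450, 260 and 371 in TA (-2.96, SE 0.16). Neb-201, with the most counts, was not called (1719, 1325 and 1618 in soleus, 1666, 1757 and 1832 in TA), and neither was the gene (-0.20, edgeR adjusted p = 0.190). Neb-202, Neb-203 and Neb-209 were also higher in TA, the last a call lost without mouse 1. Neb-206, Neb-208 and Neb-210 have 81, 101 and 128 words of 31 bases of their own, against 1424 for Neb-201. How reads shared by these transcripts were assigned is not known.

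Dtna, a dystrobrevin of the membrane complex, had Dtna-201 higher in soleus (2.11, SE 0.53) and Dtna-202 and Dtna-206 higher in TA (-1.06, SE 0.29, lost without mouse 2, and -1.78, SE 0.34). Fgd4, a guanine nucleotide exchange factor, had Fgd4-205 at 1.05 (SE 0.39) and Fgd4-206 at -1.42 (SE 0.39), and both calls were lost without mouse 1.

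**Figure D5:**
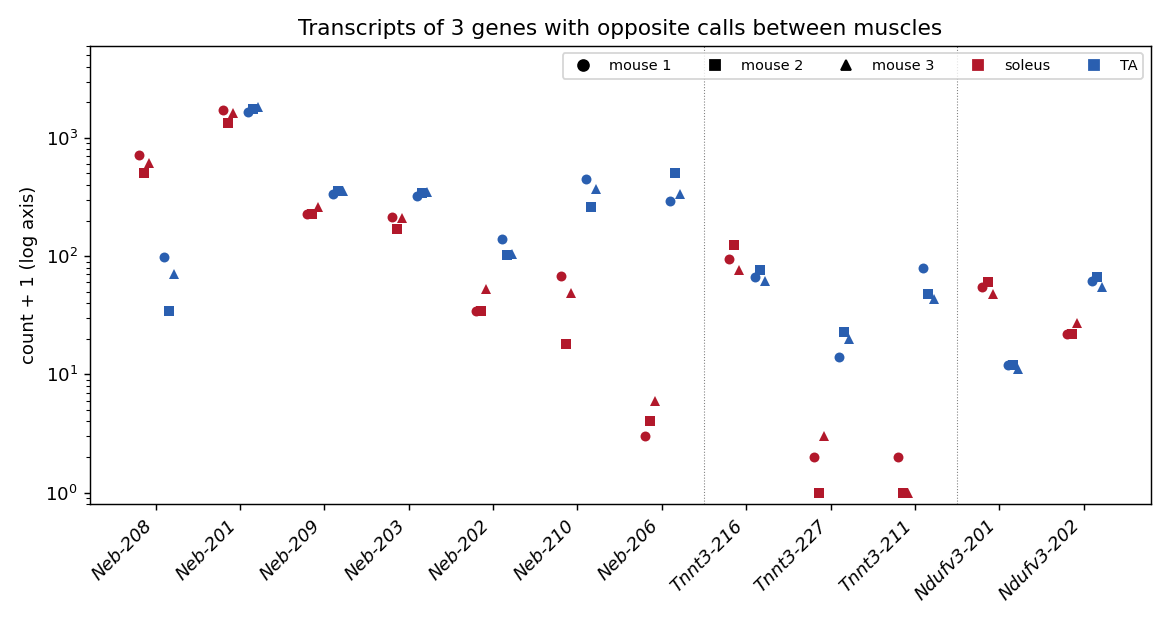
Deposited counts plus 1 on a log axis for transcripts of Neb, Tnnt3 and Ndufv3, 1 point per library, with soleus in red, TA in blue and 1 shape per mouse. Within each gene at least 1 transcript is higher in soleus and another higher in TA, as for Neb-208 against Neb-206.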

How the data were processed

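Counts per Ensembl transcript were deposited by the authors for each library, and transcripts without a read are not listed. Per the labels' protocols, 10 ng of total RNA entered Tag-Seq and Takara SMART-Seq Stranded preparations. The submitters' processing notes name bcl2fastq, Trimmomatic 0.32, FastQC and GRCm38.p4. Aligner, counter and strand setting: not given in the sources used here.

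Transcripts of the 6 male libraries were matched without version to GENCODE M21 (31358 of 31403, the other 45 left out) and summed to 16880 genes. Genes passing filterByExpr were fitted with edgeR 4.0.16 in R 4.3.3: TMM scaling, mouse and muscle as terms, robust quasi-likelihood F test, Benjamini-Hochberg adjusted p under 0.05. The same fit tested the mouse terms and, on transcripts, the muscles. DESeq2 1.42.0 was an alternative, with other scalings, filters, no mouse block and each mouse left out. Scripts were tested on simulated data. The SE is the log2 fold change divided by the square root of F. Plots used matplotlib 3.10.9.

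The names of the deposited files give soleus and TA of 1 replicate number the same animal. After muscle means were removed, their libraries correlated across 4091 genes with r of 0.300, 0.232 and 0.286, against -0.186 to -0.105 between numbers. Muscles of different mice are separate animals. Between libraries of 1 muscle the chi-square per degree of freedom was 5.83 to 8.86, so they differed by more than counting error. This check cannot tell a second preparation of the same RNA from a separate animal.

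By rule, the text names called protein-coding genes whose mean reached 10 CPM and whose 3 mice had 1 direction, the 15 with the largest fold changes per muscle. Added were up to 5 members of each list with the smallest p, 4 adult myosins, and 10 genes with the smallest p between mice. Some genes that this rule or a count covers are not reported here. The members, the 23 gene lists and the 12 marker lists were chosen with earlier results of these data known.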

Additional observations from a re-analysis of the deposited data

Results flagged for a closer look

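The difference between soleus and TA was itself compared between the 3 male and 2 female mice, with edgeR's quasi-likelihood test of the muscle by sex term and each mouse as a block. Of 5115 genes 6 passed (0.117%), and each is given because its muscle difference differed between the sexes. Values are log2, male minus female, and levels are CPM without TMM scaling.

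Fndc5, the precursor of irisin, differed by 1.83 (SE 0.24, edgeR adjusted p = 0.0128). Male soleus was at 1014, 828.1 and 818.8 CPM and male TA at 101.1, 97.2 and 90.7 CPM, while female soleus was at 424.2 and 277.8 CPM and female TA at 193.8 and 129.2 CPM. Its muscle difference was thus 3.12 in males and 1.29 in females, higher in soleus in 5 of 5 mice. Mylk4, higher in TA in all 5 mice, differed by -1.67 (SE 0.24, edgeR adjusted p = 0.0167), with -5.19 in males and -3.52 in females. Aldh1a1, a retinaldehyde dehydrogenase, differed by -1.52 (SE 0.25, edgeR adjusted p = 0.0350), with -1.75 in males and -0.23 in females. Cilp2, a cartilage matrix protein, differed by 3.35 (SE 0.55, edgeR adjusted p = 0.0350): male soleus was at 72.0, 86.5 and 87.7 CPM and male TA at 11.7, 3.39 and 5.40 CPM, while the 2 female mice went opposite ways. The predicted genes Gm12896 and Gm37515 differed by 1.59 (SE 0.27) and -3.99 (SE 0.56). These calls rest on 2 female mice, and leaving out any 1 male mouse left at most 1 gene called in all. Soleus of female mouse 2 had 15070 genes with a count, against 11275 in soleus of female mouse 1 and 10971 to 11858 in the male libraries. Gm37515 was at 89.5 CPM in that library and 9.64 CPM in soleus of female mouse 1. The part of that library in these calls was not tested.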

How the results depend on the processing

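Directions were checked for the genes named by rule, some further named genes, the genes called between the sexes and the oppositely called transcripts. Among these, no direction called in the reported or the alternative fit was reversed. Other genes were not checked. With DESeq2's Wald test 607 genes differed between muscles (306 higher in soleus, 301 in TA), and its likelihood ratio test called 49 between mice. With no replicate block, that is without pairing the muscles of a mouse, 1040 genes were called, all among the 1374, and 0 genes differed between the sexes. Leaving out 1 mouse gave 965 to 1060 genes between muscles, 44 to 141 between mice and 0 to 463 between the sexes. The highest of these, 463 and 115, left 1 female pair, which was assumed to vary like the male pairs. A filter of 5 CPM gave 10 genes with opposite transcripts in place of 6. With no filter 1219 genes were called. The cause of these differences was not tested. Of 141 named genes called between muscles, 100 lost the call under no alternative that tested them, and 711 of all 1374 genes were also called without each mouse in turn. DESeq2's Wald test lost the call for 30 of the 141, among them Myh1, Ppp3ca, Lrp4, Bhlhe40, Flt1, Sdc4 and Smoc2. With no filter the median log2 fold change of all genes was 0.10. Genes with few counts in both muscles, such as Myh2, did not pass the filter of the reported fit. Why their counts were low was not tested.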
